A study of Homo sapiens with 20 samples.

Results

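Corneal epithelial cells given SPARC at 5 µg/ml for 24 h were compared with untreated cells of the same line, over every gene with enough reads to test. The 5 libraries of the SPARC 5 group and the 5 control libraries were the 10 samples compared, of 20 in the series, and 22938 of the 60671 gene identifiers in the count table were tested. All cells were hTCEpi, 1 telomerase-immortalized line of human corneal epithelium, kept in keratinocyte growth medium 2 with its supplement, antibiotics and added calcium. Control cells had 0 µg/ml SPARC, and treated cells had recombinant human SPARC added to this medium. Another 10 libraries, 5 at 0.05 and 5 at 0.5 µg/ml, entered the model to help estimate the spread between libraries. They also entered the filter on counts and the scaling of libraries. With only the 10 libraries compared, 20807 genes were tested. Nothing in the labels tells if replicates were grown as separate cultures, so the p-values measure the spread between these libraries, which may be technical. A single immortalized line in culture has no stroma, nerve or tear film.

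SPARC, also called osteonectin, is a secreted glycoprotein of the matricellular class: it binds collagens and regulates how cells attach to matrix without itself being a structural fibre. It is produced by stromal fibroblasts and is known in the cornea for its part in wound repair. Epithelial cells rest on a basement membrane of laminins and collagen IV, to which hemidesmosomes and integrins fasten them, and migrating epithelium lays down provisional matrix rich in fibronectin. TGF-beta, released from a latent complex by integrins and proteases, signals through SMAD proteins and induces many matrix genes along with its own inhibitors.

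Depth was 32.7 to 40.2 M counts per control library and 32.6 to 42.5 M with SPARC 5. Mitochondrial transcripts took 3.60 ± 0.0811% of counts in control and 3.47 ± 0.296% with SPARC 5 (mean ± SD, n = 5), with the lowest share, 3.04%, in SPARC 5 replicate 2. The first principal component of the 10 libraries carried 15.3% of the variance and separated the groups without overlap. The second carried 12.3% and placed SPARC 5 replicates 2 and 5 at opposite ends, and with both left out 2207 genes changed, 1370 up and 837 down. The SPARC transcript itself had 1 to 12 counts in control libraries and 1 to 23 with SPARC 5, too few to test. KRT5, the basal keratin partner of KRT14, was abundant and did not pass (11321 ± 354 CPM in control and 11322 ± 157 CPM with SPARC 5, adjusted p = 0.998). With library sizes alone KRT5 was called as a fall, at −0.0472 on the log2 scale. KRT12, the keratin that defines differentiated corneal epithelium, had at most 4 counts in any library. PAX6, the master regulator of eye development, stood at 7.66 ± 0.954 CPM in control and 7.65 ± 0.756 CPM with SPARC 5. Of the 5 corneal identity markers tested 3 fell, ALDH3A1, CLU and the transketolase TKT, the last from 728 to 670.0 CPM. The summed level of the 6 corneal identity markers, most of it TKT, ran from 712 to 796 CPM in control and from 677 to 709 CPM with SPARC 5, without overlap. Stromal keratocyte markers KERA and LUM and the fibroblast receptor PDGFRA had 0 counts in all 10 libraries. The summed level of the 10 stromal and fibroblast markers ran from 7.70 to 10.3 CPM in control and from 8.45 to 12.1 CPM with SPARC 5. Summed endothelial, immune, melanocyte and conjunctival markers were each under 5 CPM in every library.

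After SPARC 5, 2665 genes changed at an adjusted p under 0.05 (edgeR quasi-likelihood F test, Benjamini-Hochberg over all genes tested), 11.6% of those tested. Of these, 1615 rose (7.04%) and 1050 fell (4.58%). Most changes were small: the median fold of the genes that rose was 1.15 and that of those that fell was 1.17, and 360 genes (1.57%) changed by at least 1.5-fold, 186 up and 174 down. Large changes in well-expressed genes were nearly all rises, since among genes at 5 CPM or more in either group 17 rose and 2 fell by 2-fold or more. The groups did not overlap for 1762 of all genes tested (7.68%), among them 977 of the genes that rose and 526 of those that fell. Rises added 39458 CPM in sum and falls summed to −8138 CPM, and THBS1 and FN1 alone made up 18.8% of the gain. CPM (counts-per-million) is not corrected for gene length, so levels are not compared between genes, and sums of CPM weight long and abundant genes. The median log2 fold change over all genes tested was −0.00694, with quartiles at −0.155 and 0.116.

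The split between rises and falls moved with the scaling of libraries. Values here use TMM factors, which offset the share of reads taken by strongly raised genes. With raw library sizes in their place, 999 genes rose and 2191 fell, and the median over all genes moved from −0.00694 to −0.0542. No gene called in both of these fits was called in opposite directions. The genes that rose and fell also differed in base composition: median transcript length was 4621 bases and median GC content 45.5% for those that rose, 3261 bases and 55.7% for those that fell, and 2289 bases and 47.9% for the rest. The correlation across genes of log2 CPM, relative to the mean of all libraries, with GC content was 0.129 ± 0.106 in control and −0.0403 ± 0.0841 with SPARC 5 (mean ± SD, n = 5, genes not being independent). It was −0.0349 ± 0.0322 at 0.05 µg/ml and −0.0606 ± 0.044 at 0.5 µg/ml. The mean was thus lower than in control at every dose and did not follow the dose. When each library's relation to GC content and length was removed, 2526 genes changed, 1484 up and 1042 down, and 1977 of the 2665 kept their call and direction. In a bulk culture, fewer cells of a type and less RNA per cell cannot be told apart.

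**Figure D1:**
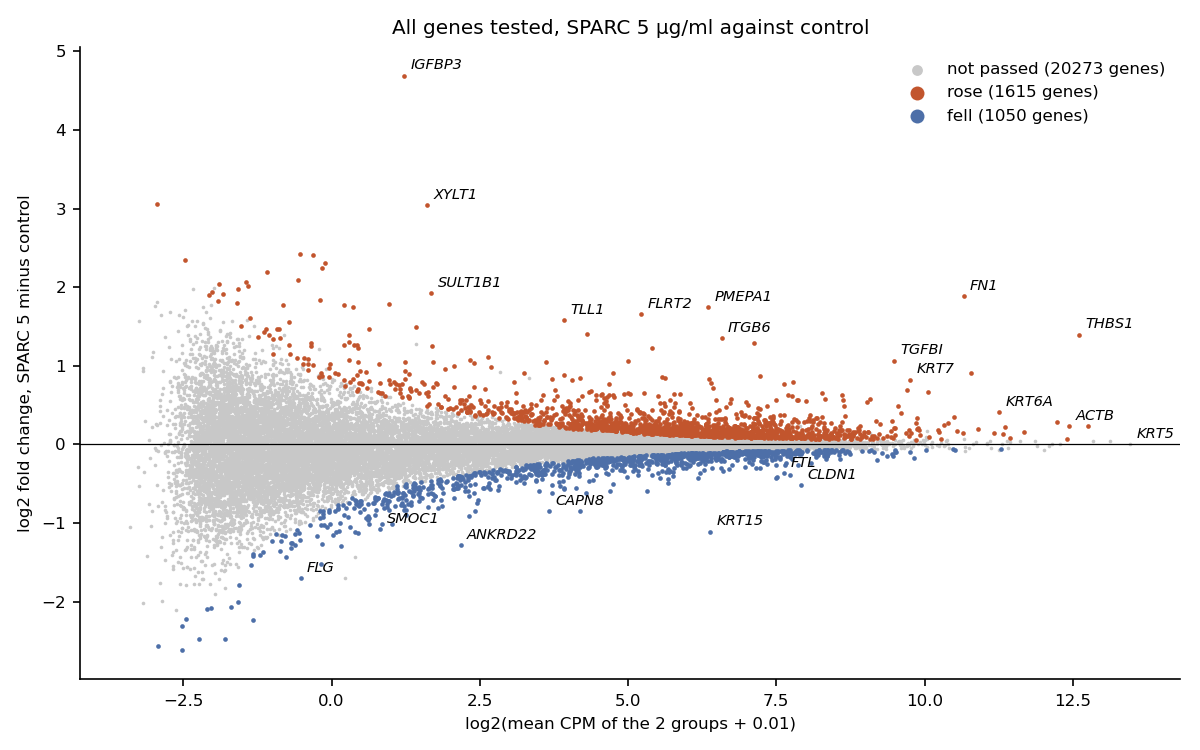
Each point is 1 of 22938 genes, with its mean level on a log2 axis (CPM plus 0.01) against its log2 fold change, SPARC 5 minus control. The 1615 genes that rose are orange, the 1050 that fell are blue, and the labels mark named genes such as FN1 and THBS1 at high level with rises over 1 and KRT15 with the deepest fall among abundant genes.

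Secreted adhesive glycoproteins included some of the largest rises. FN1 (ENSG00000115414, chromosome 2, 215360440 to 215436172, minus strand of GRCh38) encodes fibronectin, the provisional matrix protein on which epithelium migrates. It was at 643, 656, 683, 692 and 767 CPM in the control libraries and 2499, 2517, 2609, 2654 and 2422 CPM with SPARC 5. The groups were far apart, the lowest treated library holding over 3 times the highest control. FN1 rose 3.69-fold (log2 fold change 1.88, SE 0.0595, adjusted p = 9.53e-14). THBS1 (ENSG00000137801, chromosome 15, 39581079 to 39599466, plus strand) encodes thrombospondin 1, a matricellular protein that can activate latent TGF-beta. Its level was 3824, 3104, 3155, 3276 and 3726 CPM in the control libraries and 9719, 8983, 8868, 8896 and 8519.9 CPM with SPARC 5, again without overlap, a rise of 2.63-fold (log2 fold change 1.40, SE 0.0557, adjusted p = 2.98e-12). TGFBI (ENSG00000120708, chromosome 5, 136028895 to 136063818, plus strand), the TGF-beta-induced matrix protein whose mutant forms deposit in corneal dystrophies, had the smallest p of all genes. Its libraries held 469, 475, 462, 454 and 461 CPM in the control libraries and 1027, 959, 967, 948 and 953 CPM with SPARC 5, and it rose 2.09-fold (log2 fold change 1.06, SE 0.0225, adjusted p = 9.29e-62). Control libraries of TGFBI lay within a narrow band, far below every treated library.

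Of the 31 adhesive and matricellular genes listed, 25 were tested, of which 12 rose, 1 fell and 12 did not pass, with a median log2 fold change of 0.387 against −0.00694 over all genes. CCDC80, a secreted protein that binds cells to matrix, rose 2.35-fold, from 25.3 ± 2.36 to 59.3 ± 5.33 CPM (log2 fold change 1.23, SE 0.0586, adjusted p = 2.8e-26). CCN1 and CCN2, matricellular proteins induced by stretch and by YAP/TAZ, rose 1.53-fold and 1.31-fold. TNC, the wound-associated tenascin C, went from 13.0 ± 1.23 to 17.8 ± 0.710 CPM (log2 fold change 0.46, SE 0.0774, adjusted p = 2.63e-06). CCN4 rose by 1.94 on the log2 scale from a very low level. EFEMP1, or fibulin 3, rose 1.26-fold. The only member that fell was FRAS1, an epithelial basement membrane protein missing in Fraser syndrome, at 84.1 ± 6.47 CPM in control and 75.3 ± 0.672 CPM with SPARC 5 (log2 fold change −0.16, SE 0.0373, adjusted p = 0.00102). POSTN, SPP1, ELN, CCN3, FBLN2 and MFAP5 had too few counts to test.

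**Figure D2:**
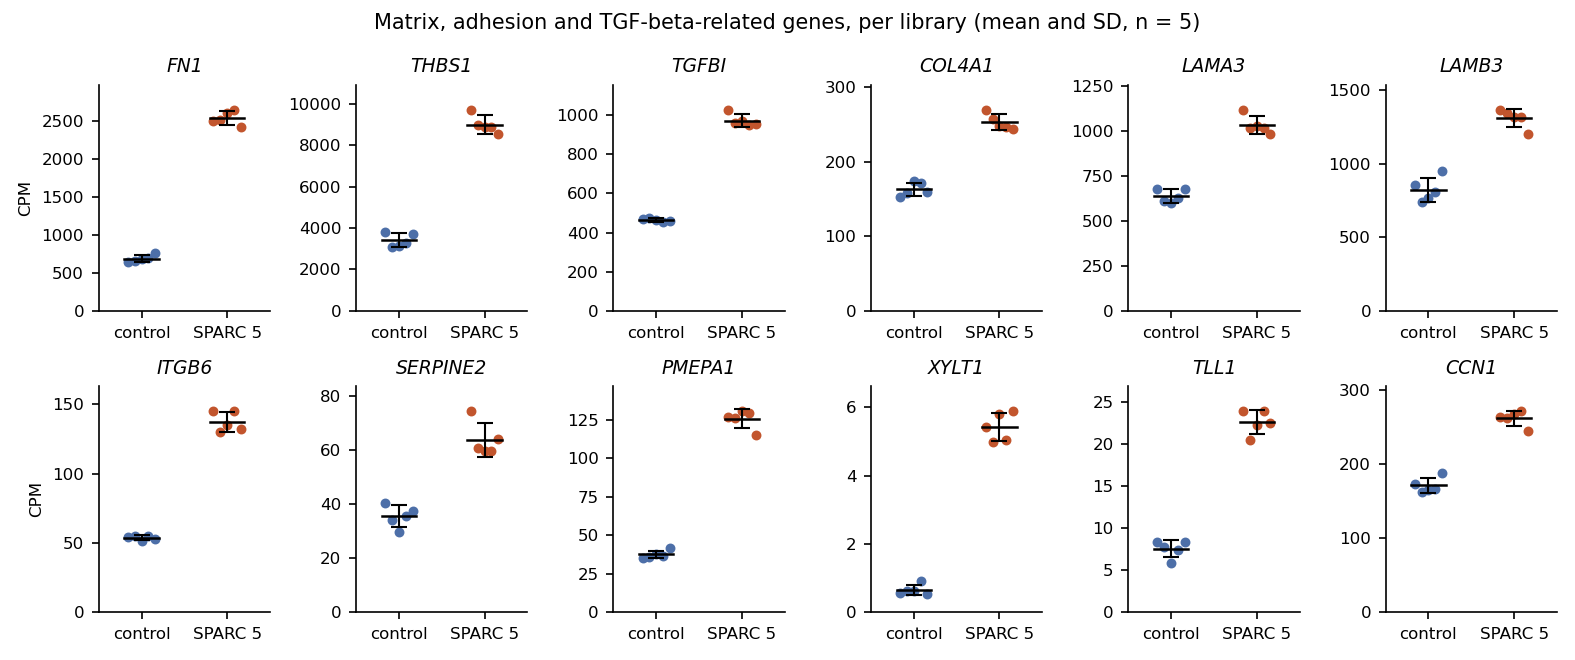
Levels in CPM on linear axes from 0 for 12 genes, 1 point per library, with the mean and SD of 5 libraries in black, control in blue and SPARC 5 in orange. No treated library overlaps a control library in any panel.

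Within SPARC's own family of secreted proteins, 2 of the 6 tested members rose and 1 fell. SPOCK1, a proteoglycan with a SPARC-like domain, was at 0.474, 0.181, 0.689, 0.735 and 0.845 CPM in the control libraries and 2.29, 2.62, 1.29, 1.49 and 2.19 CPM with SPARC 5 (log2 fold change 1.74, SE 0.339, adjusted p = 7.59e-05). FSTL1, follistatin-like 1, rose 1.32-fold (log2 fold change 0.41, SE 0.0499, adjusted p = 2.66e-10). SMOC1, a basement membrane relative of SPARC, fell from 2.39 ± 0.313 to 1.12 ± 0.332 CPM (log2 fold change −1.08, SE 0.219, adjusted p = 0.000115). SPARCL1, SPOCK2 and SPOCK3 did not pass, and SMOC2 was not tested.

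Several laminin chains of the epithelial basement membrane rose. LAMA3, an alpha chain, was at 678, 609, 600.0, 628 and 679.5 CPM in the control libraries and 1120.2, 1019, 1030.0, 1015 and 985 CPM with SPARC 5 (log2 fold change 0.69, SE 0.0398, adjusted p = 1.96e-10). LAMB3, a beta chain, was at 854, 737, 768, 807 and 947 CPM in the control libraries and 1367, 1346, 1314, 1317 and 1204 CPM with SPARC 5 (log2 fold change 0.67, SE 0.0683, adjusted p = 1.66e-06). For neither chain did the groups overlap, and the rises were 1.62-fold and 1.59-fold. LAMB2 rose by 0.22 on the log2 scale. LAMC1 passed narrowly, with a log2 fold change of 0.07 (adjusted p = 0.0451), and did not pass without control replicate 1, control replicate 2, control replicate 4, control replicate 5, SPARC 5 replicate 1, SPARC 5 replicate 2, SPARC 5 replicate 4 or SPARC 5 replicate 5 (adjusted p = 0.0532 to 0.189), nor with only the 10 libraries compared in the fit, with library sizes alone, with no filter on low counts, with a minimum count of 50, without SPARC 5 replicates 2 and 5 together or with GC content and length removed (adjusted p = 0.0547 to 0.624). LAMA5, the alpha chain of laminin-511 in mature epithelial basement membrane, moved the other way, at 692 ± 46.1 CPM in control and 626 ± 23.6 CPM with SPARC 5 (log2 fold change −0.15, SE 0.0388, adjusted p = 0.0171), with overlapping groups.

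Hemidesmosome and anchoring fibril genes rose in 6 of 7 cases, with a median of 0.269. COL7A1, which forms the anchoring fibrils under the hemidesmosome, was at 435, 433, 463, 430.4 and 407 CPM in the control libraries and 685, 674, 624, 645 and 619 CPM with SPARC 5 (log2 fold change 0.58, SE 0.0265, adjusted p = 3.96e-28). COL17A1, the transmembrane collagen of the hemidesmosome, rose 1.27-fold. The subunits of its integrin, ITGA6 and ITGB4, rose 1.26-fold and 1.21-fold, and CD151 and PLEC rose by 0.19 and 0.07 on the log2 scale. DST, which encodes the hemidesmosomal plakin BP230 among other products, did not pass.

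Collagen IV, the network collagen of basement membranes, rose in its COL4A1 and COL4A2 chains. COL4A1 was at 153, 158, 174, 171 and 159.6 CPM in the control libraries and 269.6, 257, 247, 246 and 243 CPM with SPARC 5 (log2 fold change 0.63, SE 0.0286, adjusted p = 5.59e-35), and COL4A2 rose 1.48-fold (log2 fold change 0.57, SE 0.0403, adjusted p = 6.29e-10). These genes stand head to head and overlap by 1422 bases on opposite strands, so reads from the shared stretch cannot be assigned where strand was not used. The heparan sulfate proteoglycan HSPG2, or perlecan, fell from 255 ± 23.9 to 213 ± 13.2 CPM (log2 fold change −0.26, SE 0.0644, adjusted p = 0.0114) with overlapping groups. Of 10 tested basement membrane collagens and proteoglycans, 3 rose (AGRN being the third) and 2 fell (HSPG2 and COL4A6), with a median of −0.00751. Leaving out control replicate 2, 3 or 4 or SPARC 5 replicate 1, 3 or 4 leaves 1 fall.

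Outside the basement membrane, 3 of 14 tested collagens rose and none fell (2 fell with library sizes alone). That is a called share of 21.4%, against 11.6% of all genes and 17% of protein-coding genes. COL12A1, which decorates the surface of collagen fibrils, rose 1.49-fold, from 257 ± 12.9 to 384 ± 13.7 CPM. COL8A1, a short-chain collagen also made by corneal endothelium, rose 1.24-fold, and COL10A1 went from 1.62 ± 0.797 to 3.10 ± 0.447 CPM. COL1A1, the main collagen of stroma, was at 5.05 ± 0.606 CPM in control and 6.18 ± 0.659 CPM with SPARC 5 and did not pass (adjusted p = 0.16), and COL1A2 and COL3A1 had too few counts to test. Enzymes that modify collagen gave 9 rises, 0 falls and a median of 0.116 over 23 tested members. Among them TGM2, the crosslinking tissue transglutaminase, nearly doubled, from 4.32 ± 0.677 to 8.50 ± 0.517 CPM (log2 fold change 0.98, SE 0.121, adjusted p = 3.22e-10). Lysyl hydroxylase PLOD2 rose 1.23-fold, prolyl hydroxylases P4HA2 and P3H2 1.35-fold and 1.35-fold, and the crosslinking oxidases LOX and LOXL2 1.44-fold and 1.34-fold.

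Integrin subunits that bind fibronectin, collagen and laminin rose. ITGB6 (ENSG00000115221, chromosome 2, 160099666 to 160200313, minus strand), the partner of ITGAV in an epithelial integrin that binds fibronectin and releases TGF-beta from its latent complex, changed most. It was at 54.6, 55.1, 51.3, 54.8 and 53.0 CPM in the control libraries and 145, 129.6, 135, 145 and 132 CPM with SPARC 5, a 2.56-fold rise (log2 fold change 1.35, SE 0.0370, adjusted p = 2.44e-52). A gene on the same strand, AC092153.1, overlaps ITGB6 over 58333 bases and rose by 1.97 on the log2 scale. The collagen receptor subunit ITGA2 rose 1.29-fold and the fibronectin receptor subunit ITGA5 1.19-fold. ITGB5, ITGB1 and ITGAV rose 1.26-fold, 1.16-fold and 1.12-fold, the last with overlapping groups. In sum, 9 of 19 tested subunits rose and 1 fell, with a median of 0.208. That 1 was ITGB8, at 55.5 ± 3.53 CPM in control and 49.8 ± 3.45 CPM with SPARC 5, which did not pass without control replicate 2 or SPARC 5 replicate 2 (adjusted p = 0.0613 to 0.0773).

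Inside the cell, the machinery that couples integrins to actin shifted in small steps. Of 28 tested actin and myosin genes 21 rose and 0 fell, with a median of 0.192, and with library sizes alone as the scaling 19 rose and 1 fell. ACTB, cytoplasmic beta-actin, was at 5126, 5093, 4965, 5184 and 5194 CPM in the control libraries and 5984, 6049, 5949, 6176 and 5827 CPM with SPARC 5 (log2 fold change 0.23, SE 0.0173, adjusted p = 3.2e-20), and its processed pseudogenes could share some of these reads. LIMA1, an actin-bundling protein, rose 1.48-fold, tropomyosin TPM4 1.22-fold and calponin CNN3 1.27-fold. FLNC, filamin C, went from 3.93 ± 0.667 to 6.01 ± 1.10 CPM. The smooth muscle genes ACTA2 and TAGLN did not pass. Focal adhesion plaque genes rose in 16 of 27 cases and fell in 3, with a median of 0.104, and with library sizes alone in 9 and 4. TNS4, a tensin of epithelial cells, rose 1.32-fold and FERMT1, kindlin 1, 1.21-fold, while TNS3 fell by 0.22 on the log2 scale (log2 fold change −0.22, SE 0.0311, adjusted p = 3.82e-08).

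**Figure D3:**
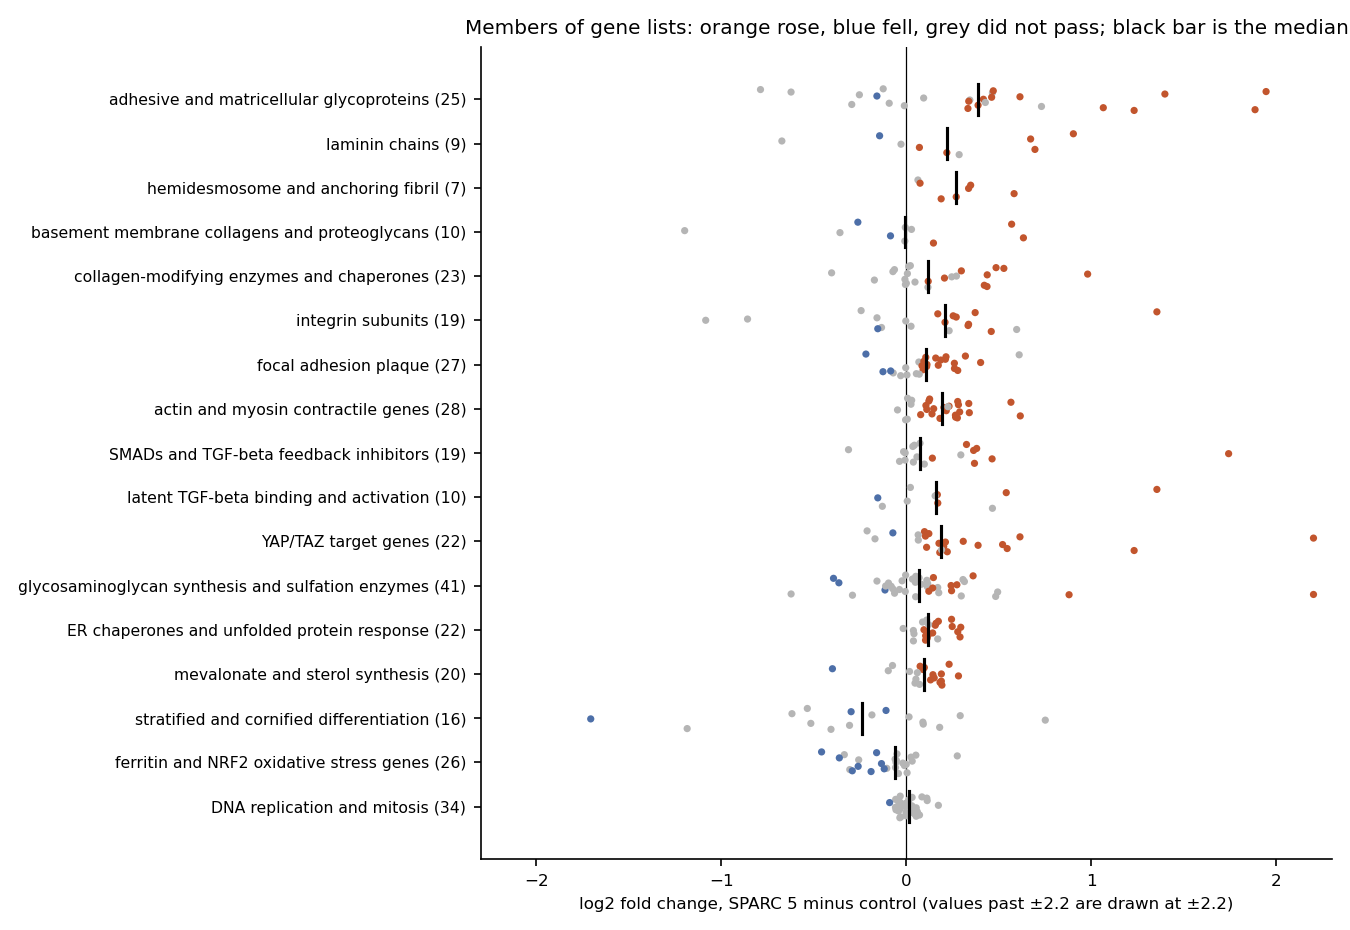
Log2 fold changes, SPARC 5 minus control, of the tested members of 17 gene lists, 1 point per gene, with the number tested in brackets and a black bar at each median. Orange points rose, blue fell and grey did not pass. Members of the matrix, integrin and actin lists lie mostly right of 0, except the basement membrane collagens and proteoglycans, whose median is −0.00751. IGFBP3 and XYLT1 are past the drawn range. The median of the NRF2 list is left of 0 at −0.0602, and that of the replication list is near 0 at 0.0120.

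Of 11 tested TGF-beta and activin ligands 9.09% were called, against 11.6% of all genes and 17% of protein-coding genes. Among these ligands TGFB1 alone rose, from 188 ± 5.45 to 218 ± 7.52 CPM (log2 fold change 0.21, SE 0.0272, adjusted p = 1.02e-09). TGFB2 was at 16.9 ± 1.33 CPM in control and 14.6 ± 1.73 CPM with SPARC 5 and did not pass (adjusted p = 0.0527). It was called as a fall in 10 of 20 other settings. With GC content and length removed 1 ligand fell, and with library sizes alone 2 fell. Without control replicate 2, 2 fell, and without control replicate 1 or SPARC 5 replicate 1, 2 or 3, 1 fell. Of the proteins that store or release the latent ligand, LTBP2, a latent TGF-beta binding protein of microfibrils, rose 1.45-fold (log2 fold change 0.54, SE 0.0314, adjusted p = 3.47e-27). The tested members of this set, which shares ITGB6, ITGAV and ITGB8 with the integrins, gave 4 rises and 1 fall among 10. Receptors TGFBR1 and BMPR2 rose 1.22-fold and 1.25-fold. TGFBR2 was at 356 ± 2.62 CPM in control and 377 ± 9.26 CPM with SPARC 5 (log2 fold change 0.08, SE 0.0237, adjusted p = 0.0145) and did not pass without SPARC 5 replicate 1 (adjusted p = 0.0885), nor with library sizes alone, with no filter on low counts or without SPARC 5 replicates 2 and 5 together (adjusted p = 0.06 to 0.428). Overall 3 of 11 receptors rose and 0 fell, while 2 fell with library sizes alone or with GC content and length removed, and 1 without SPARC 5 replicate 1 or 5.

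SMADs and the inhibitors that TGF-beta induces against its own signal gave 7 rises and 0 falls among 19 tested genes, with a median of 0.0734. PMEPA1 (ENSG00000124225, chromosome 20, 57648392 to 57711536, minus strand), which sequesters receptor-activated SMADs, was at 35.4, 36.2, 37.9, 36.9 and 41.6 CPM in the control libraries and 127, 126, 131, 129 and 115 CPM with SPARC 5. Every treated library was far above every control, a 3.34-fold rise (log2 fold change 1.74, SE 0.0450, adjusted p = 4.73e-47). SMAD7, the inhibitory SMAD, went from 14.0 ± 1.75 to 18.1 ± 2.07 CPM (log2 fold change 0.37, SE 0.0807, adjusted p = 0.000426), and SKIL, a SMAD co-repressor, rose 1.30-fold. The ubiquitin ligases SMURF1 and SMURF2 rose by 0.14 and 0.32 on the log2 scale. Activin antagonists FSTL3 and FST rose 1.38-fold and 1.29-fold. SMAD2, SMAD3 and SMAD4, the signal carriers, did not pass. Among cell-cycle genes that TGF-beta regulates in epithelium, CDKN1A, the p21 inhibitor, rose 1.47-fold (log2 fold change 0.56, SE 0.0836, adjusted p = 1.33e-07). MYC was at 415 ± 15.5 CPM in control and 406 ± 14.0 CPM with SPARC 5 and ID1 at 5.25 ± 0.958 CPM in control and 4.46 ± 0.458 CPM with SPARC 5, and neither passed. ID3 was at 24.3 ± 2.11 CPM in control and 28.2 ± 2.21 CPM with SPARC 5 (log2 fold change 0.22, SE 0.0615, adjusted p = 0.00946) and did not pass without SPARC 5 replicate 4 (adjusted p = 0.0538), nor with library sizes alone (adjusted p = 0.0521).

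Regulators of epithelial-mesenchymal transition and cadherins gave 2 rises and 1 fall among 17 tested, with a median of 0.0511. The called share was 17.6%, near the 17% of protein-coding genes, against 11.6% of all genes. With library sizes alone 1 rose and 2 fell, and 1 rose without SPARC 5 replicate 2 or without SPARC 5 replicates 2 and 5 together. SNAI2, the transcription factor Slug that is active in wounded epithelium, was at 103 ± 8.92 CPM in control and 137 ± 7.63 CPM with SPARC 5 (log2 fold change 0.41, SE 0.0508, adjusted p = 2.64e-06). EPCAM, an epithelial adhesion molecule, fell from 86.6 ± 3.11 to 69.2 ± 1.75 CPM (log2 fold change −0.32, SE 0.0349, adjusted p = 1.11e-12). TWIST2 rose 1.17-fold but did not pass without control replicate 3, control replicate 4 or SPARC 5 replicate 2 (adjusted p = 0.0756 to 0.117), nor with library sizes alone or without SPARC 5 replicates 2 and 5 together (adjusted p = 0.0866 to 0.187). E-cadherin, CDH1, stood at 97.2 ± 3.77 CPM in control and 101 ± 4.17 CPM with SPARC 5 (adjusted p = 0.391). VIM, vimentin, was at 0.167, 0.0604, 0.197, 0.147 and 0.121 CPM in the control libraries and 0.266, 0.374, 0.430, 0.385 and 0.472 CPM with SPARC 5, near the lower limit of detection in both groups and not called (adjusted p = 0.0992).

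Plasminogen activators and serpins, inhibitors of serine proteases, made up the next group. Of 14 tested genes 3 rose, 1 fell and 10 did not pass, with a median of 0.0969. SERPINE2, protease nexin 1, was at 40.4, 34.0, 29.6, 35.6 and 37.5 CPM in the control libraries and 74.3, 60.6, 59.4, 59.7 and 63.9 CPM with SPARC 5, with no overlap between groups. It rose 1.80-fold (log2 fold change 0.85, SE 0.0701, adjusted p = 6.37e-10) and SERPINB5, maspin, 1.26-fold. Tissue plasminogen activator PLAT fell from 13.4 ± 1.22 to 10.5 ± 0.837 CPM (log2 fold change −0.36, SE 0.0824, adjusted p = 0.000741), while urokinase PLAU was at 28.1 ± 1.09 CPM in control and 30.2 ± 3.94 CPM with SPARC 5 and did not pass (adjusted p = 0.359).

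MMP, ADAM, ADAMTS and TIMP genes, listed together with HTRA1, gave 8 rises and 1 fall among 28 tested genes, with a median of 0.0307. TLL1, described below, was not in this list. MMP14, the membrane-bound collagenase, rose 1.22-fold (log2 fold change 0.28, SE 0.0271, adjusted p = 7.7e-15) and HTRA1, a secreted serine protease that cleaves fibronectin, 1.31-fold (log2 fold change 0.39, SE 0.0338, adjusted p = 5.79e-17). ADAMTS6 went from 3.95 ± 1.13 to 8.49 ± 1.03 CPM (log2 fold change 1.11, SE 0.190, adjusted p = 0.000146). ADAM19 was at 0.111, 0.242, 0.320, 0.323 and 0.0604 CPM in the control libraries and 0.853, 1.47, 1.10, 1.49 and 0.888 CPM with SPARC 5 (log2 fold change 2.42, SE 0.461, adjusted p = 3.76e-05), low in both groups but without overlap. TIMP3, a matrix-bound inhibitor, rose 1.71-fold. MMP25 was the fall, at 1.44 ± 0.316 CPM in control and 0.656 ± 0.314 CPM with SPARC 5, and did not pass without SPARC 5 replicate 2 or SPARC 5 replicate 5 (adjusted p = 0.0507 to 0.066), nor without SPARC 5 replicates 2 and 5 together (adjusted p = 0.228). Without control replicate 2, or with library sizes alone, 2 members fell. MMP1, MMP2, MMP9 and MMP10 did not pass. TLL1 (ENSG00000038295, chromosome 4, 165873258 to 166103895, plus strand), a tolloid protease that trims procollagens, was at 8.33, 7.82, 5.93, 7.46 and 8.33 CPM in the control libraries and 23.9, 20.5, 22.2, 23.9 and 22.6 CPM with SPARC 5. No treated library came near the controls, and the rise was 2.99-fold (log2 fold change 1.58, SE 0.0880, adjusted p = 1.7e-28).

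The largest fold change among genes at 5 CPM or more was that of XYLT1 (ENSG00000103489, chromosome 16, 17101769 to 17470881, minus strand), xylosyltransferase 1, which attaches the first sugar of glycosaminoglycan chains to proteoglycan cores. Its libraries held 0.557, 0.634, 0.640, 0.911 and 0.543 CPM in the control libraries and 5.41, 4.99, 5.78, 5.04 and 5.88 CPM with SPARC 5. Every control was under 1 CPM and every treated library near 5 CPM or above, an 8.22-fold rise (log2 fold change 3.04, SE 0.231, adjusted p = 5.29e-20). Enzymes further along the pathway moved less. CHST11, which sulfates chondroitin, rose 1.84-fold, from 10.7 ± 0.748 to 19.6 ± 1.33 CPM (log2 fold change 0.88, SE 0.0805, adjusted p = 8.57e-16), and CHST15, which adds a further sulfate, 1.28-fold. On the heparan sulfate side, NDST1 rose 1.21-fold and EXT2 1.18-fold. HAS3, a hyaluronan synthase, fell from 40.8 ± 4.89 to 31.1 ± 2.67 CPM (log2 fold change −0.39, SE 0.0589, adjusted p = 6.47e-07), and SULF1, which removes sulfates from heparan sulfate, was at 7.30 ± 0.753 CPM in control and 5.66 ± 0.998 CPM with SPARC 5 and did not pass without control replicate 3, SPARC 5 replicate 1 or SPARC 5 replicate 2 (adjusted p = 0.0553 to 0.0881), nor without SPARC 5 replicates 2 and 5 together (adjusted p = 0.171). In all 9 of 41 tested enzymes rose and 3 fell, with a median of 0.0682, but with library sizes alone 6 rose and 8 fell. The falls numbered 1 without control replicate 3 and 5 without control replicate 5. Of the core proteins, CD44, the hyaluronan receptor, rose 1.16-fold and SDC3, syndecan 3, 1.35-fold, while GPC1, glypican 1, was at 346 ± 31.0 CPM in control and 303 ± 17.3 CPM with SPARC 5 and did not pass without control replicate 2, SPARC 5 replicate 1 or SPARC 5 replicate 5 (adjusted p = 0.052 to 0.0542), nor with only the 10 libraries compared in the fit (adjusted p = 0.12). XYLT2, the other xylosyltransferase, did not pass.

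Since many of these genes moved together, the 250 bases before the RefSeq start (GRCh38.p14) were searched on both strands for 6 short motifs, none contained in another, in the 11981 tested genes with a window. CAGACA, a motif that holds the SMAD box, was in 10.4% of all windows and in 16 of 105 windows (15.2%) of genes that rose by at least 1.5-fold. TGANTCA, the AP-1 site, was in 4.34% of all windows, in 8 of 105 (7.62%) of those genes, and in 12 of 59 (20.3%) of genes that fell by at least 1.5-fold. Over all genes that rose, the shares of these motifs were nearer the background, with CAGACA in 139 of 1285 (10.8%) and TGANTCA in 68 (5.29%). Of all 680 falls, 37 (5.44%) held TGANTCA, also nearer the background. CAGACA was in 57 of the 680 falls (8.38%), against 6 of 59 (10.2%) of the falls of at least 1.5-fold. The CRE TGACGTCA was in 2.71% of all windows, against 4 of 105 and 1 of 59. The TEAD motif GGAATG was in 9.56% of all, against 8 of 105 and 9 of 59, and TATAAA in 6.18%, against 13 of 105 and 6 of 59. The SP1 motif GGGCGG was in 64.2% of all, against 58 of 105 and 34 of 59. Over all called genes GGGCGG was on the other side of its background, in 934 of 1285 rises (72.7%) and 481 of 680 falls (70.7%). These shares are a description, and short motifs also match by chance. The 4 windows below show 2 genes that rose and 2 that fell, chosen for their matches after the sequences were seen, with matches of all motifs but GGGCGG in capitals.
XYLT1, chr16:17470961-17471210, minus strand: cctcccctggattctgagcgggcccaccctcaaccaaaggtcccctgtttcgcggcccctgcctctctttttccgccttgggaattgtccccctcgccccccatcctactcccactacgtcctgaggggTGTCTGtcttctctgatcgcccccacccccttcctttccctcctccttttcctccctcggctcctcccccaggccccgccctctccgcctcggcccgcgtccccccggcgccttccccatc
TLL1, chr4:165872987-165873236, plus strand: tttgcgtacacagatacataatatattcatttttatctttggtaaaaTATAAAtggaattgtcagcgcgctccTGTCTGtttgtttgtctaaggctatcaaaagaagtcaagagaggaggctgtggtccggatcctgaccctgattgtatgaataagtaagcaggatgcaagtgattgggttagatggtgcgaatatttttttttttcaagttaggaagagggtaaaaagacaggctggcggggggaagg
ANKRD22, chr10:88851845-88852094, minus strand: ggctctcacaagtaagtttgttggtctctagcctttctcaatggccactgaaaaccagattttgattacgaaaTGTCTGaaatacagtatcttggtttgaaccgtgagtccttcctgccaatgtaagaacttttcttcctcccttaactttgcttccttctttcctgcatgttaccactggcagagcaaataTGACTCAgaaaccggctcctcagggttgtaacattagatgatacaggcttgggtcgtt
CAPN8, chr1:223665735-223665951, minus strand: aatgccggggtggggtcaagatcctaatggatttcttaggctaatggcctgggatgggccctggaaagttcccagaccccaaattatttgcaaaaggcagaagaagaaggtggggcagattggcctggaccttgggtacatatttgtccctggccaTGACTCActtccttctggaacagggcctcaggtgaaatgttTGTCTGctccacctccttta
In XYLT1 the capitals mark CAGACA read on the other strand, beginning 121 bases before the start. In TLL1 they mark TATAAA at 203 bases and the same SMAD motif at 177 bases. ANKRD22 has the SMAD motif at 177 bases and an AP-1 site at 58 bases, and CAPN8 an AP-1 site at 94 bases and the SMAD motif at 53 bases. The window of CAPN8 is cut where an annotated exon begins.

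IGFBP3, which binds insulin-like growth factors and is a target of both TGF-beta and YAP/TAZ, was nearly off in control. It was at 0.139, 0.0604, 0.0985, 0.441 and 0.121 CPM in the control libraries and 5.97, 4.55, 4.52, 4.49 and 2.86 CPM with SPARC 5 (log2 fold change 4.69, SE 0.571, adjusted p = 9.47e-06). In control replicate 4 it stood above the other controls, yet below all treated libraries. IGF1R, the growth factor receptor, rose 1.29-fold (log2 fold change 0.37, SE 0.0267, adjusted p = 4.54e-21). Of 12 tested genes of this axis 5 rose and 0 fell (1 fell with library sizes alone or with GC content and length removed), and 3 rose without SPARC 5 replicate 1. INSR, the insulin receptor, was at 5.60 ± 0.954 CPM in control and 7.45 ± 1.14 CPM with SPARC 5 and did not pass without control replicate 5 or SPARC 5 replicate 1 (adjusted p = 0.0632 to 0.0876). IGF2 was under 1.5 CPM in all 10 libraries and did not pass without SPARC 5 replicate 4 (adjusted p = 0.0684), nor with limma voom (adjusted p = 0.0888).

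YAP/TAZ are co-activators that respond to cell spreading and tension. Of 22 genes listed as targets of YAP/TAZ, 16 rose and 1 fell, with a median of 0.185. The activity of YAP/TAZ itself was not tested. The list shares CCN1, CCN2, CCDC80 and IGFBP3 with groups above. F3, tissue factor, rose 1.46-fold (log2 fold change 0.54, SE 0.0629, adjusted p = 7.95e-06) and the ectonucleotidase NT5E 1.24-fold (log2 fold change 0.31, SE 0.0264, adjusted p = 4.62e-17). ANKRD1 did not pass. The fall was MYOF, by 0.07 on the log2 scale. With library sizes alone 12 rose and 2 fell. Leaving out control replicate 4 or SPARC 5 replicate 1 gave 0 falls, and leaving out control replicate 1 or 2 or SPARC 5 replicate 3 gave 2.

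For the EGF receptor family, 3 of 24 tested genes rose and 2 fell, with a median of −0.0186. That is a called share of 20.8%, against 11.6% of all genes and 17% of protein-coding genes. With library sizes alone 2 rose and 4 fell. The ligands NRG1 and AREG rose 1.29-fold and 1.28-fold. EGFR itself was at 1047 ± 30.9 CPM in control and 1122 ± 19.5 CPM with SPARC 5 (log2 fold change 0.10, SE 0.0217, adjusted p = 0.000404), and the call was lost with library sizes alone and with GC content and length removed. SPRY1, a feedback inhibitor of receptor tyrosine kinases, fell from 15.8 ± 1.24 to 10.4 ± 1.05 CPM (log2 fold change −0.62, SE 0.0784, adjusted p = 7.41e-10). The rises numbered 6 without control replicate 5.

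In the Wnt pathway 8 of 34 tested genes rose and 1 fell, with a median of 0.0765. Called members made up 26.5%, against 11.6% of all genes and 17% of protein-coding genes. WNT5B, a ligand of the non-canonical branch, was at 12.7, 12.6, 11.7, 13.6 and 14.9 CPM in the control libraries and 22.2, 27.2, 23.6, 23.8 and 20.8 CPM with SPARC 5 (log2 fold change 0.85, SE 0.0764, adjusted p = 6.68e-16). The receptor FZD10 went from 0.677 ± 0.248 to 1.63 ± 0.366 CPM, and the secreted antagonists SFRP1 and DKK3 rose 1.21-fold and 1.18-fold. AXIN2, a feedback inhibitor of canonical signalling, rose by 1.02 on the log2 scale. Notch genes were split, 2 up and 2 down among 18, a called share of 22.2% against the same 17% of protein-coding genes. JAG1 rose 1.16-fold, and NOTCH1 and its feedback gene NRARP fell by 0.17 and by 0.32 on the log2 scale. Without control replicate 5, 4 Notch genes fell.

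KRT15, a keratin of resting basal and limbal cells, had the deepest fall among abundant genes. It was at 106, 133, 139.5, 115 and 77.7 CPM in the control libraries and 43.7, 56.2, 48.9, 53.0 and 63.6 CPM with SPARC 5, so the highest treated library was below the lowest control, which was control replicate 5 (log2 fold change −1.11, SE 0.143, adjusted p = 2.98e-05). Some wound-type and basal keratins rose. KRT6A, a keratin of migrating keratinocytes, was at 2289.5, 2021, 1939.5, 2065 and 2259 CPM in the control libraries and 2986, 2813, 2701, 2718 and 2791 CPM with SPARC 5 (log2 fold change 0.41, SE 0.0495, adjusted p = 1.5e-05), although its near-identical copies KRT6B and KRT6C could share reads with it. KRT14 rose 1.40-fold, from 331 ± 25.0 to 465 ± 42.3 CPM (log2 fold change 0.49, SE 0.0648, adjusted p = 3.92e-05). KRT7, a simple-epithelial keratin, was at 556, 647, 651, 641 and 617 CPM in the control libraries and 1097, 1107, 1116, 1119 and 1073 CPM with SPARC 5 (log2 fold change 0.82, SE 0.0276, adjusted p = 3.35e-26), and KRT18 fell by 0.17 on the log2 scale (log2 fold change −0.17, SE 0.0250, adjusted p = 1.72e-07). Of 9 basal and wound-type keratins 3 rose and 1 fell (3 and 3 with library sizes alone, 5 and 1 with GC content and length removed). KRT16, KRT17, KRT8 and KRT19 did not pass.

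Genes of limbal and corneal identity were divided, with 3 rises and 3 falls among 17 tested. ALDH3A1 (ENSG00000108602, chromosome 17, 19737984 to 19748943, minus strand), the crystallin-like aldehyde dehydrogenase of corneal epithelium, was at 6.60, 5.98, 6.94, 7.41 and 7.51 CPM in the control libraries and 3.52, 3.31, 3.94, 3.52 and 4.80 CPM with SPARC 5. All treated libraries were below all controls (log2 fold change −0.85, SE 0.121, adjusted p = 3.02e-08). ALDH1A3, which makes retinoic acid, fell from 61.4 ± 3.64 to 46.2 ± 2.97 CPM (log2 fold change −0.41, SE 0.0428, adjusted p = 4.14e-13), and the neurotrophin receptor NGFR from 17.1 ± 2.45 to 11.9 ± 1.99 CPM (log2 fold change −0.52, SE 0.0878, adjusted p = 5.87e-06). SOX9 rose 1.33-fold and KLF4 1.19-fold. TP63, which maintains stratified epithelium, was at 266 ± 1.70 CPM in control and 283 ± 6.55 CPM with SPARC 5 (log2 fold change 0.09, SE 0.0242, adjusted p = 0.00536), a rise lost with library sizes alone, with no filter on low counts and with GC content and length removed.

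Terminal differentiation was low in these cultures, as 22 of 38 listed genes, IVL and LORICRIN among them, had too few counts to test. Of the other 16, 0 rose and 3 fell, with a median of −0.243. The called share was 18.8%, against 11.6% of all genes and 17% of protein-coding genes. FLG, filaggrin, was at 0.836, 1.24, 0.985, 1.41 and 0.785 CPM in the control libraries and 0.213, 0.499, 0.239, 0.275 and 0.388 CPM with SPARC 5 (log2 fold change −1.71, SE 0.336, adjusted p = 7.01e-05), with no overlap. The cornified envelope plakins PPL and EVPL fell by 0.30 and by 0.11 on the log2 scale. Among tight junction genes, CLDN1, the main claudin of stratified epithelium, was at 310.1, 277, 262, 277 and 294 CPM in the control libraries and 201, 196, 188, 199.6 and 207 CPM with SPARC 5 (log2 fold change −0.52, SE 0.0553, adjusted p = 2.88e-06). CXADR, another junction protein, fell from 7.78 ± 0.613 to 5.70 ± 0.742 CPM (log2 fold change −0.45, SE 0.109, adjusted p = 0.00166), and TJP1 rose 1.12-fold. The tight junction set gave 2 rises and 2 falls among 17, with 1 rise without control replicate 3. Its called share was 23.5%, against the same 11.6% of all genes and 17% of protein-coding genes. In desmosomes 3 of 10 genes rose, DSP by 0.19, DSC2 by 0.17 and DSG2 by 0.08 on the log2 scale, and PKP2 fell by 0.11. With library sizes alone 2 desmosome genes rose and 2 fell.

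**Figure D4:**
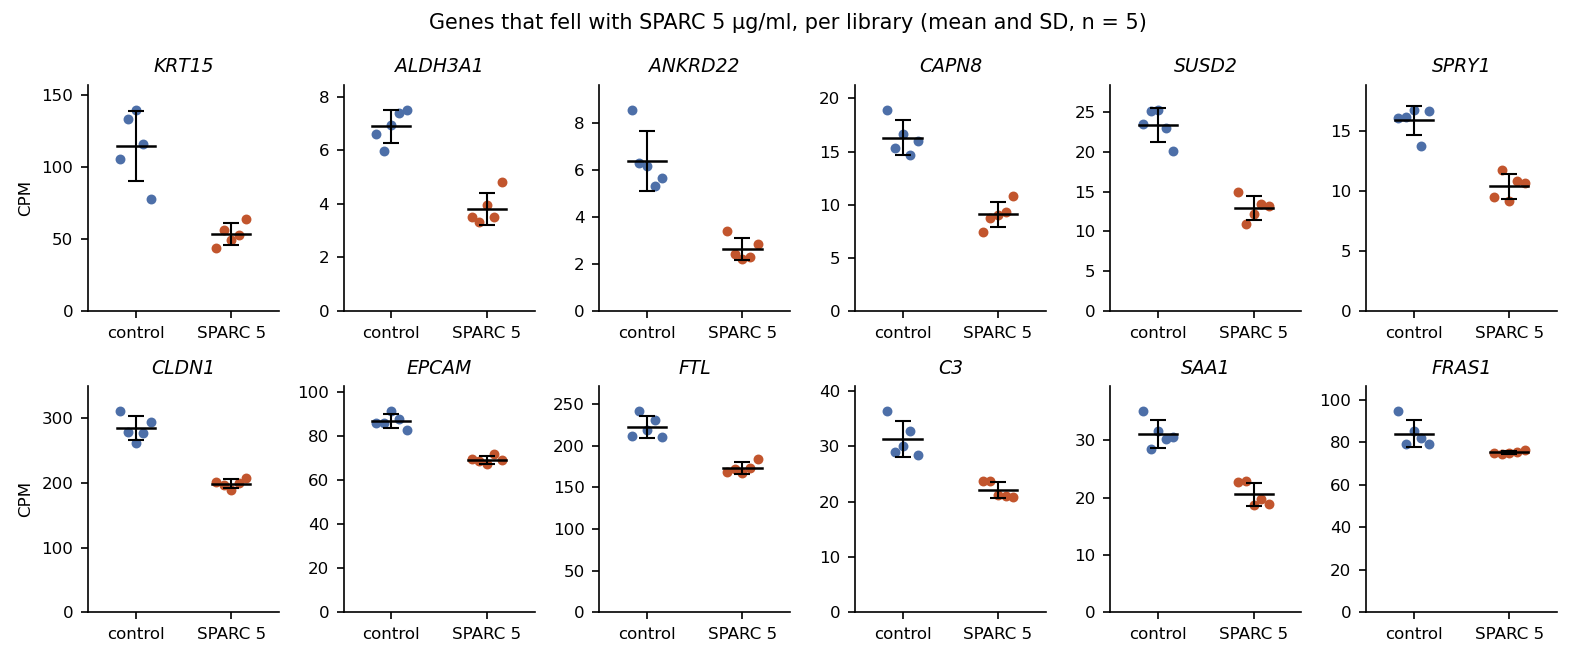
Levels in CPM on linear axes from 0 for 12 genes that fell, 1 point per library, with the mean and SD of 5 libraries in black, control in blue and SPARC 5 in orange. KRT15 has the widest control spread, from 77.7 to 139.5 CPM, and no panel has a treated library above a control library.

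Genes of secretion and lipid synthesis were next. The endoplasmic reticulum chaperones and other unfolded protein response genes gave 14 rises and 0 falls among 22, with a median of 0.119. HSPA5, the chaperone BiP, was at 819.8, 849, 850.0, 828 and 848 CPM in the control libraries and 1027, 1024, 1008, 1050.0 and 975 CPM with SPARC 5 (log2 fold change 0.28, SE 0.0217, adjusted p = 2.63e-19). CALR, calreticulin, rose 1.23-fold (log2 fold change 0.29, SE 0.0215, adjusted p = 7.02e-21) and the transcription factor XBP1 1.18-fold. The ATF4 branch did not follow, with 0 rises and 1 fall among 19, PSAT1, a serine synthesis enzyme at 139.8 ± 4.96 CPM in control and 131 ± 3.54 CPM with SPARC 5, which did not pass without control replicate 2, control replicate 3, SPARC 5 replicate 1 or SPARC 5 replicate 5 (adjusted p = 0.0571 to 0.093), nor with limma voom or without SPARC 5 replicates 2 and 5 together (adjusted p = 0.0551 to 0.125). In the mevalonate and sterol pathway 12 of 20 enzymes rose and 1 fell, with a median of 0.0928 (8 rose and 2 fell with library sizes alone). MSMO1 rose 1.22-fold, HMGCS1 1.17-fold and SQLE 1.13-fold, and TM7SF2 fell from 20.5 ± 2.96 to 15.5 ± 1.10 CPM (log2 fold change −0.40, SE 0.0716, adjusted p = 1.06e-05). Without control replicate 5 or SPARC 5 replicate 5, 2 enzymes fell. Of 25 genes of fatty acid synthesis and sterol control 7 rose and 1 fell. ABCA1, which exports cholesterol, changed most, from 9.43 ± 1.91 to 16.8 ± 2.39 CPM (log2 fold change 0.83, SE 0.103, adjusted p = 1.54e-08). SCD, which desaturates fatty acids, rose 1.11-fold, and SREBF1 was at 447 ± 28.4 CPM in control and 412 ± 12.6 CPM with SPARC 5 (log2 fold change −0.12, SE 0.0273, adjusted p = 0.00132) with overlapping groups. Without SPARC 5 replicate 2, or with library sizes alone, 3 genes of this set fell, and 2 with GC content and length removed.

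Iron storage and oxidative stress genes fell without exception among those called: 0 rose and 8 fell of 26 tested (13 fell with library sizes alone), with a median of −0.0602. FTL, the ferritin light chain, was at 212, 241, 219, 231 and 210.4 CPM in the control libraries and 169, 172, 167, 174 and 184 CPM with SPARC 5 (log2 fold change −0.36, SE 0.0296, adjusted p = 1.71e-17), and FTH1, the heavy chain, at 405 ± 16.1 CPM in control and 355 ± 19.4 CPM with SPARC 5 (log2 fold change −0.19, SE 0.0363, adjusted p = 0.000489); both have processed pseudogenes that could share reads. SRXN1, sulfiredoxin, fell by 0.46 on the log2 scale. NQO1, HMOX1 and GCLM did not pass. Metallothioneins and zinc transporters had 4 rises of 20, MT2A at 2427 ± 168 CPM in control and 2834 ± 121 CPM with SPARC 5 among them, which did not pass without control replicate 1, control replicate 3 or SPARC 5 replicate 1 (adjusted p = 0.0526 to 0.0625), nor with library sizes alone (adjusted p = 0.0534). Only 1 of the 4 rose with library sizes alone and 2 without control replicate 1. The 4 were 20% of the tested members, against 11.6% of all genes and 17% of protein-coding genes.

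Hypoxia-responsive genes were not uniform. NDRG1, a stress-induced protein, was at 152, 147, 161, 147 and 127 CPM in the control libraries and 264, 253, 249, 235 and 246 CPM with SPARC 5 (log2 fold change 0.76, SE 0.0460, adjusted p = 3.57e-11), and ANGPTL4, a secreted inhibitor of lipoprotein lipase, rose 1.81-fold (log2 fold change 0.86, SE 0.0913, adjusted p = 2.17e-06). VEGFA, the angiogenic factor, fell from 158 ± 12.5 to 129 ± 8.03 CPM (log2 fold change −0.30, SE 0.0542, adjusted p = 0.000717), and CA9, a carbonic anhydrase induced by hypoxia, from 4.44 ± 1.37 to 2.71 ± 0.597 CPM (log2 fold change −0.71, SE 0.166, adjusted p = 0.00109). Counts were 7 up and 2 down of 23, 4 and 5 with library sizes alone, 4 and 4 with GC content and length removed, and 4 up without control replicate 1, control replicate 2 or SPARC 5 replicate 4.

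Of 28 tested cytokines, chemokines and NF-kB targets 2 rose and 4 fell, with a median of −0.0722. The called share was 21.4%, against 11.6% of all genes and 17% of protein-coding genes. C3, the central complement protein, was at 36.3, 28.9, 30.0, 32.8 and 28.3 CPM in the control libraries and 23.6, 23.8, 21.2, 20.9 and 20.9 CPM with SPARC 5 (log2 fold change −0.50, SE 0.0624, adjusted p = 4.54e-10), and SAA1, an acute-phase protein, fell from 31.2 ± 2.45 to 20.6 ± 2.02 CPM (log2 fold change −0.60, SE 0.0814, adjusted p = 1.66e-06). PTGS2, cyclooxygenase 2, rose 1.66-fold (log2 fold change 0.73, SE 0.153, adjusted p = 0.000192), and NLRP3, an inflammasome sensor, was at 0.522 ± 0.207 CPM in control and 1.76 ± 0.607 CPM with SPARC 5 (log2 fold change 1.77, SE 0.335, adjusted p = 5.1e-05). The falls numbered 7 without control replicate 2 or control replicate 3 and 8 with library sizes alone. Of 26 tested interferon-stimulated genes 15.4% were called, against 11.6% of all genes and 17% of protein-coding genes. Of them B2M alone rose, by 0.08 on the log2 scale, and 0 rose without control replicate 2, 3 or 4 or SPARC 5 replicate 1 or 4. In this set 3 fell, among them IFIT2 at 2.94 ± 0.433 CPM in control and 1.80 ± 0.459 CPM with SPARC 5 (log2 fold change −0.71, SE 0.191, adjusted p = 0.00568), whose call was lost without SPARC 5 replicates 2 and 5 together. Without SPARC 5 replicate 4, 1 of the 3 fell. AP-1 genes were divided: JUN rose 1.25-fold (log2 fold change 0.32, SE 0.0374, adjusted p = 7.43e-11) and KLF6, another immediate early factor, 1.32-fold, while FOSL2 fell from 163 ± 3.42 to 140.4 ± 4.53 CPM (log2 fold change −0.21, SE 0.0309, adjusted p = 7.8e-08). FOSB was at 4.87 ± 0.487 CPM in control and 3.40 ± 0.874 CPM with SPARC 5 and did not pass without SPARC 5 replicate 3 (adjusted p = 0.0546), nor without SPARC 5 replicates 2 and 5 together (adjusted p = 0.0687), and FOS at 5.79 ± 0.916 CPM in control and 4.34 ± 0.643 CPM with SPARC 5 and did not pass without control replicate 2, control replicate 4, SPARC 5 replicate 3, SPARC 5 replicate 4 or SPARC 5 replicate 5 (adjusted p = 0.0534 to 0.141), nor with limma voom or without SPARC 5 replicates 2 and 5 together (adjusted p = 0.07 to 0.15). Replication and mitosis genes gave 0 rises and 1 fall of 34, with a median of 0.0120; PLK1, at 171 ± 9.85 CPM in control and 160.2 ± 6.92 CPM with SPARC 5, did not pass without control replicate 2, control replicate 3, control replicate 4, SPARC 5 replicate 1 or SPARC 5 replicate 3 (adjusted p = 0.0828 to 0.166), nor with only the 10 libraries compared in the fit, with the DESeq2 test, with limma voom, with no filter on low counts or with GC content and length removed (adjusted p = 0.051 to 0.133). With library sizes alone 8 of these fell, with GC content and length removed 2 rose, and 2 fell without control replicate 1, control replicate 5 or SPARC 5 replicate 2.

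Several of the strongest changes lay outside these groups. SULT1B1, a sulfotransferase that conjugates thyroid hormones and phenols, was at 1.64, 1.45, 0.763, 1.29 and 1.57 CPM in the control libraries and 5.17, 4.09, 5.47, 5.01 and 5.60 CPM with SPARC 5 (log2 fold change 1.92, SE 0.191, adjusted p = 3.85e-14). FLRT2, an adhesion and axon guidance protein that binds FGF receptors, was at 19.7, 19.1, 16.9, 16.8 and 17.6 CPM in the control libraries and 63.8, 52.4, 52.2, 58.1 and 56.9 CPM with SPARC 5 (log2 fold change 1.65, SE 0.0571, adjusted p = 4.57e-44). For neither gene did the groups overlap. SGK1, a kinase induced by serum and glucocorticoid, rose 2.09-fold (log2 fold change 1.06, SE 0.0712, adjusted p = 1.16e-16) and CUX2, a homeobox factor, 2.11-fold (log2 fold change 1.08, SE 0.140, adjusted p = 1.76e-09). AMIGO2, an adhesion protein, rose 1.74-fold, the receptor phosphatase PTPRK 1.83-fold and the secreted protease PRSS23 1.58-fold. PSMD2, a proteasome regulatory subunit, and TUBA4A, an alpha-tubulin, rose 1.40-fold and 1.48-fold with adjusted p of 4.09e-34 and 9.18e-34. AC037198.1, at 10.9 ± 1.63 CPM in control and 28.9 ± 2.13 CPM with SPARC 5, lies wholly within THBS1 on the same strand, and its reads cannot be told from those of THBS1. AHNAK, a giant scaffold protein, was among the 8 largest gains of CPM, going from 4367 ± 67.1 to 5316 ± 105 CPM. RN7SL1, the RNA of the signal recognition particle, which has near-identical copies, went from 6392 ± 592 to 7509 ± 364 CPM (log2 fold change 0.23, SE 0.0575, adjusted p = 0.0121) with overlapping groups, a call lost without SPARC 5 replicates 2 and 5 together and with only the 10 libraries compared in the fit.

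Among genes at 5 CPM or more in either group, falls of 2-fold or more were fewer than such rises, 2 against 17. Over all called genes the median fold was 1.17 for falls and 1.15 for rises. ANKRD22, an ankyrin-repeat protein, was at 8.55, 6.28, 6.15, 5.29 and 5.64 CPM in the control libraries and 3.38, 2.43, 2.22, 2.29 and 2.83 CPM with SPARC 5 (log2 fold change −1.28, SE 0.147, adjusted p = 1.86e-11). CAPN8, a calpain first known from stomach, was at 18.9, 15.3, 16.7, 14.7 and 16.0 CPM in the control libraries and 7.46, 8.76, 9.01, 9.33 and 10.8 CPM with SPARC 5 (log2 fold change −0.85, SE 0.0831, adjusted p = 2.43e-14), and SUSD2, a membrane protein, at 23.5, 25.2, 25.3, 23.0 and 20.1 CPM in the control libraries and 15.0, 11.0, 12.2, 13.4 and 13.3 CPM with SPARC 5 (log2 fold change −0.85, SE 0.0724, adjusted p = 2.17e-17). In each of these 3 genes all treated libraries lay below all controls. ZBTB32, a zinc finger repressor, fell by 0.91 on the log2 scale (SE 0.130), TMPRSS9, a serine protease, by 0.71 (SE 0.122), and the sodium leak channel NALCN by 0.69 (SE 0.134). CYP1B1, a cytochrome that metabolizes retinoids and oestrogens, fell from 6.08 ± 0.888 to 3.84 ± 0.559 CPM, CAVIN2, a caveolar protein, from 23.7 ± 1.37 to 15.5 ± 1.02 CPM, and SYT12, a synaptotagmin, from 48.2 ± 5.52 to 31.9 ± 4.78 CPM. AC009078.3 and AC131212.3, at log2 fold changes of −0.74 and −0.62, overlap BCAR1 and FBRSL1 on the same strand and are uncertain. In CPM lost, CCND2, cyclin D2, led with 955 ± 57.4 to 846 ± 57.6 CPM (log2 fold change −0.18, SE 0.0488, adjusted p = 0.0255), and it did not pass without control replicate 2, control replicate 3, control replicate 4, control replicate 5, SPARC 5 replicate 1 or SPARC 5 replicate 5 (adjusted p = 0.0513 to 0.0694), nor with only the 10 libraries compared in the fit or without SPARC 5 replicates 2 and 5 together (adjusted p = 0.099 to 0.111). EEF2, elongation factor 2, went from 2551 ± 29.2 to 2443 ± 51.0 CPM, a call lost with GC content and length removed, and SRRM2, a splicing factor, from 1505 ± 14.8 to 1434 ± 22.6 CPM. FAT2, a giant cadherin, went from 626 ± 50.1 to 545 ± 32.0 CPM and did not pass without control replicate 3, control replicate 4 or SPARC 5 replicate 1 (adjusted p = 0.0526 to 0.0666), nor with only the 10 libraries compared in the fit (adjusted p = 0.0862). SERINC2 went from 745 ± 56.8 to 675 ± 20.2 CPM and did not pass without control replicate 2, control replicate 3, control replicate 4, SPARC 5 replicate 1, SPARC 5 replicate 3 or SPARC 5 replicate 4 (adjusted p = 0.0544 to 0.0671), nor with only the 10 libraries compared in the fit (adjusted p = 0.102). NCL, nucleolin, went from 1458 ± 20.2 to 1394 ± 42.1 CPM and did not pass without control replicate 4, SPARC 5 replicate 2 or SPARC 5 replicate 3 (adjusted p = 0.0545 to 0.0958), nor with no filter on low counts or without SPARC 5 replicates 2 and 5 together (adjusted p = 0.0557 to 0.18).

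Among long noncoding RNAs 70 rose and 152 fell of 4558 tested (4.87%), against 1526 and 821 of 13845 protein-coding genes (17.0%). SCAT1 doubled, from 2.79 ± 0.499 to 5.59 ± 0.584 CPM (log2 fold change 1.00, SE 0.150, adjusted p = 1.46e-07), and MIR503HG rose 1.60-fold (log2 fold change 0.67, SE 0.0778, adjusted p = 4.3e-10). AL022311.1, AL031595.3 and AL391095.1 had the largest falls at 5 CPM or more, by 0.59, by 0.58 and by 0.56 on the log2 scale. AL022311.1 and AL031595.3 overlap EIF3L and PARVB on the same strand, over 13260 and 14262 bases, and are uncertain. PARVB itself fell by 0.13 on the log2 scale, and EIF3L did not pass.

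Levels at the lower doses, measured against the same 5 controls, are given side by side. FN1 was at 885 ± 69.0 CPM at 0.05 µg/ml and 1175 ± 71.3 CPM at 0.5 µg/ml, between its control mean and its level at 5 µg/ml, and THBS1 at 3675 ± 129 CPM at 0.05 µg/ml and 4415 ± 179.9 CPM at 0.5 µg/ml. TGFBI was at 467 ± 9.71 CPM at 0.05 µg/ml and 542 ± 9.86 CPM at 0.5 µg/ml, and ITGB6 at 57.2 ± 1.93 CPM at 0.05 µg/ml and 65.9 ± 2.92 CPM at 0.5 µg/ml. For XYLT1 the means were 0.665 ± 0.380 CPM at 0.05 µg/ml and 0.880 ± 0.119 CPM at 0.5 µg/ml, both under 1 CPM. PMEPA1 was at 40.5 ± 3.36 CPM at 0.05 µg/ml and 50.2 ± 2.73 CPM at 0.5 µg/ml. In the other direction KRT15 was at 102 ± 14.3 CPM at 0.05 µg/ml and 87.0 ± 6.02 CPM at 0.5 µg/ml, and CLDN1 at 264 ± 15.9 CPM at 0.05 µg/ml and 258 ± 19.7 CPM at 0.5 µg/ml. These 8 genes were taken from those with strong changes at 5 µg/ml, and in each the largest step in mean CPM between neighbouring doses was the one from 0.5 to 5 µg/ml. That step was the largest for 1121 of the 1615 genes that rose and for 514 of the 1050 that fell, and the step from 0 to 0.05 µg/ml was the largest for 319 and 321. FSTL1 was of the latter kind, with 37.2 ± 0.907 CPM at 0.05 µg/ml and 40.2 ± 1.88 CPM at 0.5 µg/ml against 31.5 ± 1.44 CPM in control and 41.7 ± 3.11 CPM with SPARC 5. These counts are a description, since the genes were called on the difference between 5 µg/ml and control.

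**Figure D5:**
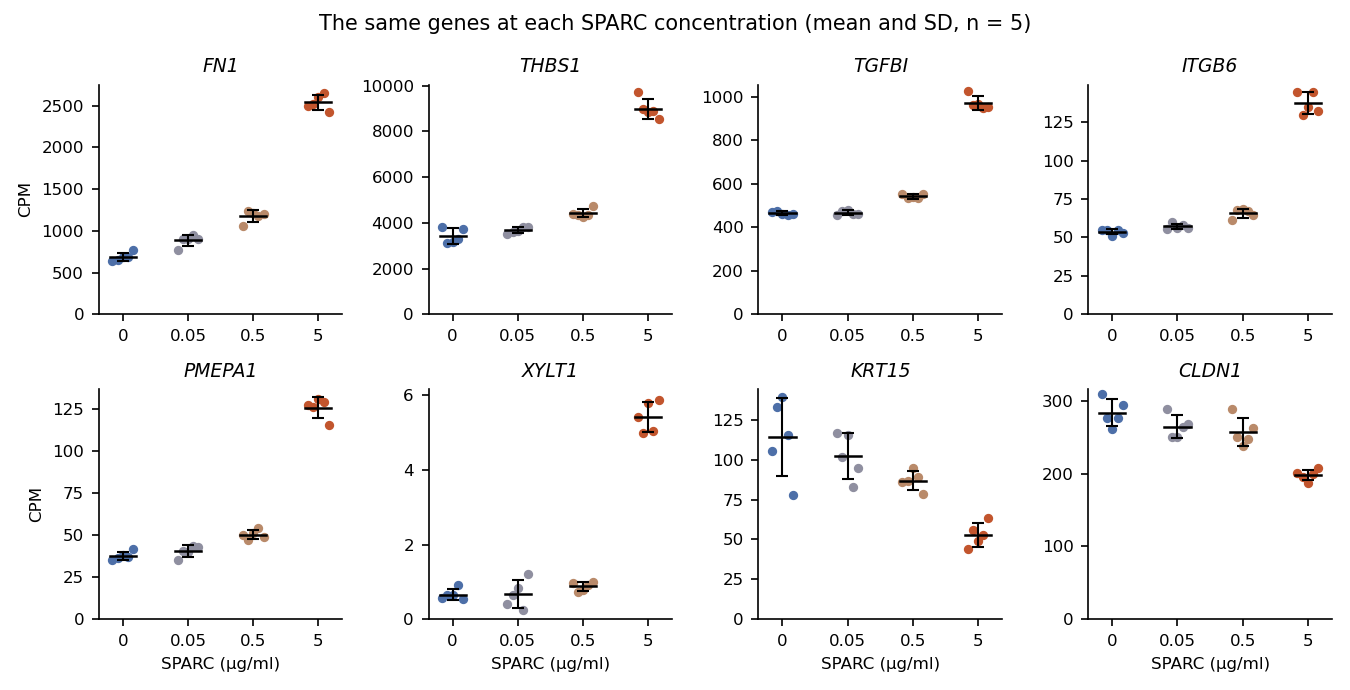
Levels in CPM on linear axes from 0 for 8 genes at 0, 0.05, 0.5 and 5 µg/ml SPARC, 1 point per library, with the mean and SD of 5 libraries; the dose axis is evenly spaced by step, not to scale. The libraries at 5 µg/ml stand apart from the other 3 groups in every panel.

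The authors' deposited table for the same comparison, made with their own filter and model, holds 16045 genes, of which 2614 had an adjusted p under 0.05, 1461 up and 1153 down. Calls of the same direction in both analyses numbered 2418, which is 90.7% of the calls made here and 92.5% of theirs. In the authors' deposited table FN1 has a log2 fold change of 1.88, with an interval from 1.82 to 1.95.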

How the data were processed

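The deposited table holds whole-number read counts per Ensembl gene. Build GRCh38, STAR 2.7.9a and featureCounts 2.0.3 are named in the submitters' processing notes, along with Salmon 1.5.2, limma and edgeR. Per the labels, ribosomal RNA was removed enzymatically before random-primed cDNA synthesis. Neither the strand setting nor the annotation release is given in the sources used here. The authors' deposited comparison table holds log2 fold changes and p-values, per the file headers.

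Each of the 168 identifiers that stood on several entries was used once. Genes passed filterByExpr (minimum count 10) and were compared in R 4.3.3 with edgeR 4.0.16 (robust quasi-likelihood F test, TMM factors), with all 4 dose groups in 1 model, and Benjamini-Hochberg adjustment over 22938 genes. A gene rose or fell at an adjusted p under 0.05. SE is the log2 fold change over the root of F. The fit was tested on simulated counts. DESeq2 1.42.0 and limma 3.58.1 were alternatives.

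Named genes are the 15 largest rises and falls at 5 CPM or more, the 10 smallest p, the 8 largest CPM gains and losses, 3 long noncoding RNAs each way and up to 5 members per gene list, with further members named as values. A few genes that this rule names are not reported here. The lists, 42 with 896 genes, and the members were chosen with earlier results of these data known. Positions are from GENCODE 29 on GRCh38 and upstream sequences from RefSeq. Replicate libraries differed by more than counting noise.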

Additional observations from a re-analysis of the deposited data

Results flagged for a closer look

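For each gene named with per-library values, and for depth, mitochondrial share, genes detected and both principal components, the highest and the lowest of the 5 libraries of control and of SPARC 5 were compared with the other 4. A library was set apart when its gap to the nearest one, over the whole range of the group, was above 0.71, the 95% critical value of Dixon for 5 samples. Of 392 such groups, 28 had a library past this value (7.14%), where chance alone gives about 1 in 20.

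In SPARC 5 replicate 1, TGFBI was at 1027 CPM against 948 to 967 CPM in the other 4 libraries, FAT2 was at 489 CPM against 548 to 567 CPM in the other 4 libraries and ITGA6 was at 1129 CPM against 1005 to 1033 CPM in the other 4 libraries. In SPARC 5 replicate 1, COL12A1 was at 408 CPM against 374 to 383 CPM in the other 4 libraries, MYC was at 430 CPM against 394 to 404 CPM in the other 4 libraries and SDC3 was at 38.6 CPM against 41.3 to 41.5 CPM in the other 4 libraries. In SPARC 5 replicate 3, PAX6 was at 8.99 CPM against 7.14 to 7.41 CPM in the other 4 libraries. In SPARC 5 replicate 4, EVPL was at 203 CPM against 211 to 214 CPM in the other 4 libraries, IFIT2 was at 2.59 CPM against 1.4 to 1.72 CPM in the other 4 libraries and FZD10 was at 2.26 CPM against 1.36 to 1.59 CPM in the other 4 libraries. In SPARC 5 replicate 5, PMEPA1 was at 115 CPM against 126 to 131 CPM in the other 4 libraries, TGFBR1 was at 73.5 CPM against 69.3 to 70.5 CPM in the other 4 libraries and FSTL3 was at 154 CPM against 169 to 175 CPM in the other 4 libraries. In control replicate 1, CCND2 was at 855 CPM against 967 to 1001 CPM in the other 4 libraries, CHST11 was at 9.33 CPM against 10.9 to 11.2 CPM in the other 4 libraries and KLF4 was at 24.8 CPM against 20.5 to 21.4 CPM in the other 4 libraries. In control replicate 1, ABCA1 was at 6.13 CPM against 9.82 to 11.1 CPM in the other 4 libraries and VEGFA was at 179 CPM against 148 to 157 CPM in the other 4 libraries. In control replicate 2, CALR was at 657 CPM against 623 to 631 CPM in the other 4 libraries. In control replicate 4, XYLT1 was at 0.911 CPM against 0.543 to 0.64 CPM in the other 4 libraries, SPRY1 was at 13.7 CPM against 16 to 16.7 CPM in the other 4 libraries and IGFBP3 was at 0.441 CPM against 0.0604 to 0.139 CPM in the other 4 libraries. In control replicate 5, NALCN was at 6.13 CPM against 4.85 to 5.04 CPM in the other 4 libraries, AC131212.3 was at 4.53 CPM against 6.52 to 7.19 CPM in the other 4 libraries and LTBP2 was at 95.5 CPM against 105 to 107 CPM in the other 4 libraries. In control replicate 5, EXT2 was at 149 CPM against 145 to 146 CPM in the other 4 libraries, F3 was at 502 CPM against 390 to 420 CPM in the other 4 libraries and DSP was at 1064 CPM against 1125 to 1139 CPM in the other 4 libraries.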

How the results depend on the processing

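Under 20 other settings, between 2207 and 3190 genes changed, against 2665, and no gene called in both fits was called in opposite directions. Scaling by library size alone moved the split from 1615 up and 1050 down to 999 up and 2191 down, and 76.9% of the calls were kept. That setting also turned KRT5 to −0.0472 on the log2 scale and called it as a fall. Limiting the fit to the 10 libraries compared gave 2337 genes, DESeq2 size factors 2661, the DESeq2 test 2854, limma voom 2461, no filter on low counts 2336 and a minimum count of 50 gave 2866. Changes of at least 1.5-fold numbered 277 to 420, against 360. Leaving out 1 library at a time gave 2236 to 2638 genes, 1361 to 1614 up and 858 to 1101 down, with 304 to 365 of at least 1.5-fold. Chosen after seeing the data, removing GC content and length kept 74.2% of the calls, and leaving out SPARC 5 replicates 2 and 5 together kept 74.7%. With the replicate number as a block 2750 genes changed, 1659 up and 1091 down. Libraries of the same number hardly deviated together (r = 0.0161 to 0.0357) and 3 of the 5 numbers correlated best with themselves. Of 182 called genes among those named, 158 kept call and direction in all 20 settings and 24 lost the call in at least 1. Depth limits genes of few counts: SPARC, KRT12 and most cornified envelope genes could not be tested.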

Other observations

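Some genes that overlap a named gene moved with it, and the counts cannot assign shared reads where strand was not used. NKILA, on the strand opposite PMEPA1 over 1354 bases, rose by 1.26 on the log2 scale beside 1.74 for PMEPA1. AL034349.1, opposite PTPRK over 650 bases, rose by 1.56 beside 0.87. AP001528.3, opposite PRSS23 over 3249 bases, rose by 1.25, and AP000654.1, on the same strand as PRSS23 over 4548 bases, by 1.00, beside 0.66. TUBA4B, opposite TUBA4A over 18946 bases, rose by 0.68 beside 0.57. Most overlapping genes that were tested did not pass, among them FZD4, opposite PRSS23 over 7232 bases, and FSIP1, opposite THBS1 over 11110 bases. AL590006.1, opposite PTPRK over 57363 bases, and AP001528.2, opposite PRSS23 over 32824 bases, did not pass either.

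Among the cell markers, CLU, abundant in corneal epithelium, fell from a range of 12.7 to 18.4 CPM in control to 9.58 to 12.3 CPM with SPARC 5. SOX10, a neural crest and melanocyte factor, also fell, from a range of 0.823 to 1.75 CPM to 0.263 to 1.06 CPM, while TYR and TYRP1 had 0 counts in all 10 libraries.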
